A study of Mus musculus with 6 samples.

Results

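The genes of the mitochondrial ribosomal proteins were followed in hearts of mice with heat stroke. They were taken as every gene whose symbol has the form Mrpl or Mrps, a number and at most 1 letter. This gave 78 of the 57180 genes in the deposited matrix, 49 of them Mrpl genes of the large subunit and 29 Mrps genes of the small subunit. Their 342 transcripts, of 149132 in the matrix, were summed per gene. Pseudogenes carrying such a name, 6 in all, were not members.

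RNA of 6 hearts was sequenced, 3 from sham mice and 3 from mice with heat stroke (HS), with 1 library per heart. All mice were C57BL/6N males, an inbred strain, 6 to 8 weeks old and without a transgene or drug, and both groups went without food and water. HS mice were heated at 40 °C, with 60 to 65% humidity, up to a core temperature of 42 °C, and recovered at 22 to 25 °C. Sham mice were kept at 22 to 25 °C and the same humidity. The time between reaching 42 °C and taking the heart is not given in the sources used here, and neither is the part of the heart that was taken.

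Mitochondria keep a small genome of their own and translate its messages on their own ribosomes. These ribosomes hold rRNA made inside the organelle, while every one of their proteins is encoded in the nucleus, made in the cytosol and imported. The small subunit reads the message and the large subunit joins the amino acids, and the products are core subunits of the respiratory chain and of ATP synthase, on which the beating heart depends. Many of the proteins have relatives in bacterial ribosomes and others are found only in mitochondria.

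The libraries held 22098487 to 25855876 counts, and 14717 genes passed the filter on low counts and were tested. Levels are given as CPM, the counts scaled to the library total and edgeR's TMM factor, and fold changes as log2 of HS over sham. The 8 markers listed for ventricular cardiomyocytes were abundant in all 6 hearts, with a summed level of 37106 to 48077 CPM. That was in keeping with the label of heart tissue. Not all of these markers, Myh6 among them, are confined to the ventricle. HS hearts 1 and 3 stood apart from the other hearts. Their 7 atrial markers together reached 3755 and 2851 CPM, against 140 CPM in HS heart 2 and 92.9 to 113 CPM in the sham hearts. The summed level of 8 fibroblast markers was 1219 and 1855 CPM in these hearts, 790 CPM in HS heart 2 and 657 to 782 CPM in the sham hearts. For this reason results are given per heart, and with and without these hearts where they differ. In tissue RNA, fewer cells of a type and less RNA per cell cannot be told apart.

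No mitochondrial ribosomal protein gene reached an adjusted p under 0.05, and most had a negative fold change, small in size and different between HS hearts. Of the 78 genes, 70 had a negative fold change and 8 a positive one, whereas 48.7% of all tested genes were negative. The median log2 fold change was -0.20, with quartiles of -0.26 and -0.14, against a median of 0.01 over all tested genes. The median standard error of a single gene was 0.12. All 78 genes passed the filter on low counts.

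At an adjusted p under 0.05 (edgeR's quasi-likelihood test, Benjamini-Hochberg over all tested genes) 0 members were called, where 0.0612% of all genes were called, 0.0544% as higher and 0.00679% as lower. DESeq2 and limma-voom also called 0 members. At an unadjusted p under 0.05, 9 members (11.5%) were lower in HS hearts, against 4.76% of all genes, and 0 were higher, against 8.83% of all genes. The count of lower members depended on single hearts. It was 2 (2.56%, against 2.31% of all genes) without sham heart 1, 3 (3.85%, against 2.35%) without sham heart 2 and 1 (1.28%, against 2.87%) without sham heart 3, so that it was near or below the share of all genes. It was 4 (5.13%, against 4.37%) without HS heart 1, 46 (59.0%, against 8.10%) without HS heart 2 and 11 (14.1%, against 6.72%) without HS heart 3. In 29 members (37.2%) all HS hearts lay below all sham hearts, against 10.9% of all genes. The opposite arrangement was found in 1 member, Mrpl48, against 11.0% of all genes.

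**Figure D1:**
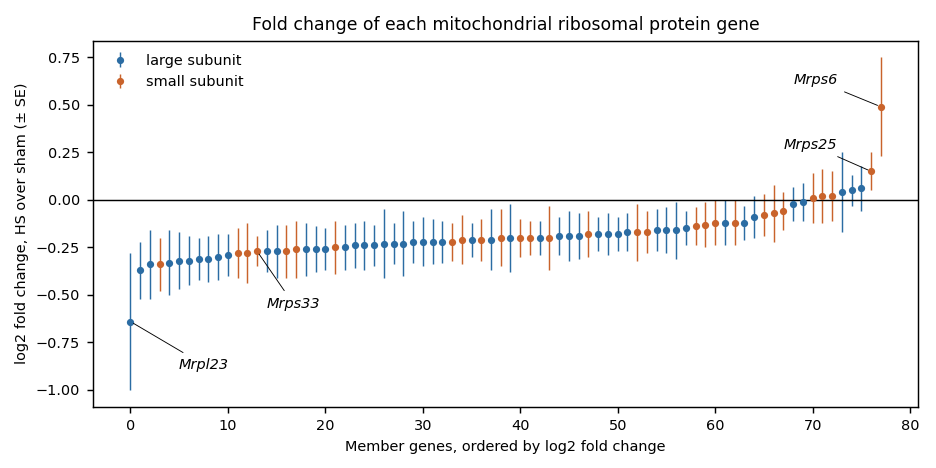
Log2 fold change of each of the 78 genes, HS over sham, ordered from lowest to highest; points are edgeR estimates, bars are standard errors, and colours mark the subunit by gene name. The values run from -0.64 (Mrpl23) to 0.49 (Mrps6), and 70 of the 78 points lie below 0.

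The summed level of all members was 2344, 2313 and 2354 CPM in sham hearts 1, 2 and 3, and 1976, 2299 and 1913 CPM in HS hearts 1, 2 and 3. The sham hearts lay close together (2337 ± 21.3 CPM, SD, n = 3), while the HS hearts were spread over a wider range (2063 ± 207 CPM, SD, n = 3). HS hearts 1 and 3 were well below the sham hearts and HS heart 2 was just below the lowest of them, so the groups did not overlap. As a share of all counts, with no other scaling, the members made up 0.243, 0.236 and 0.234% in the sham hearts, against 0.212, 0.228 and 0.17% in the HS hearts. That ordering of the groups was the same as on the TMM scale.

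Most of the difference was found in HS hearts 1 and 3. The median difference from the sham mean, in log2 CPM over the members, was -0.25, -0.03 and -0.30 in HS hearts 1, 2 and 3, against -0.00, -0.02 and 0.01 in the sham hearts. In HS heart 1, 71 of the 78 genes lay below the lowest sham heart, where 31.9% of all genes did, and 2 lay above the highest, where 33.4% did. In HS heart 3 the count was 69, where 40.1% of all genes did, and 4 members lay above the highest sham heart, where 39.8% of all genes did. In HS heart 2 it was 31, where 29.3% of all genes did, and 19 members lay above the highest sham heart, where 29.0% did.

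Individual genes followed the same order of hearts. HS heart 2 was the highest of the HS hearts for 69 members, HS heart 3 the lowest for 43 and HS heart 1 the lowest for 30. In 65 members HS hearts 1 and 3 both lay below the lowest sham heart, as did 20% of all genes. The coefficient of variation was larger among HS hearts than among sham hearts for 69 members (88.5%), with medians of 12.7% and 4.42%. It was also larger for 75.1% of all genes, with medians of 17.2% and 9.25%.

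**Figure D2:**
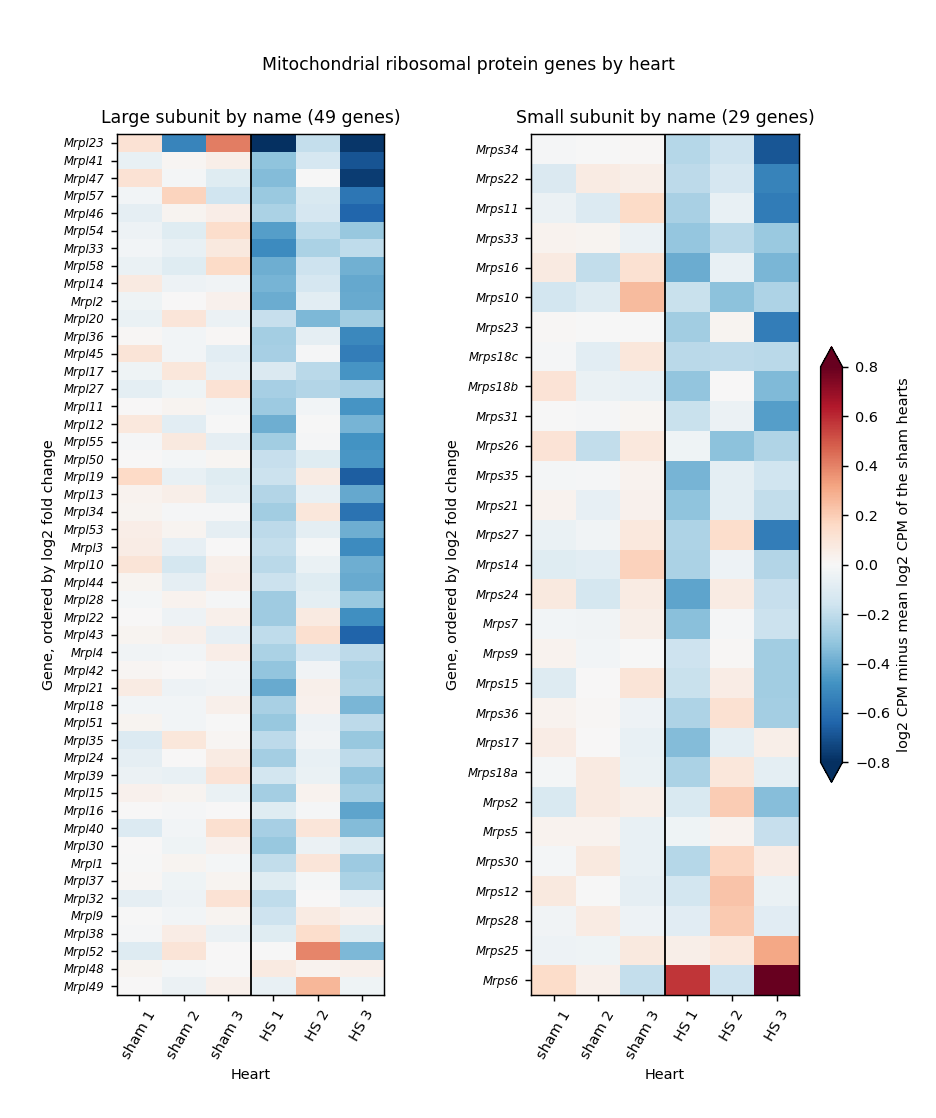
Level of every member in every heart as log2 CPM minus the mean log2 CPM of the sham hearts, with the large subunit on the left and the small subunit on the right. Each row is a gene and each column a heart, blue is lower and red higher, and colours saturate at the ends of the scale; the columns of HS hearts 1 and 3 are blue in most rows, and the column of HS heart 2 is pale.

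The hearts with low levels of these genes were therefore those with high atrial and fibroblast markers. Summed levels of 4 smooth muscle markers were likewise 501 and 498 CPM in HS hearts 1 and 3, 207 CPM in HS heart 2 and 122 to 157 CPM in the sham hearts. Of 8 ventricular markers, 5 had a negative fold change, with a median log2 fold change of -0.13 and medians of -0.21, -0.01 and -0.35 in HS hearts 1, 2 and 3. Of the atrial markers, Bmp10 was listed at 0 in every heart but HS heart 3 and Sln at 0 in HS heart 2 and sham hearts 2 and 3. The part of these markers in the levels of the ribosomal protein genes was not tested. With HS hearts 1 and 3 left out, the comparison rests on HS heart 2 alone, and the median log2 fold change of the members was -0.03. With HS heart 2 left out, the median was -0.28, and 0 members reached an adjusted p under 0.05.

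The medians of both subunits were negative, and the difference between them was small. The 49 large subunit genes had a median log2 fold change of -0.22 (quartiles -0.26 and -0.17), with 46 negative and 3 positive values. The 29 small subunit genes had a median of -0.18 (quartiles -0.22 and -0.08), with 24 negative and 5 positive. All HS hearts lay below all sham hearts in 21 large subunit genes (42.9%) and 8 small subunit genes (27.6%), against 10.9% of all genes. At an unadjusted p under 0.05, 7 large (14.3%) and 2 small subunit genes (6.9%) were lower, against 4.76% of all genes, so that the small subunit was near the share of all genes.

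In the large subunit the summed level was 1572, 1549 and 1570 CPM in the sham hearts and 1313, 1531 and 1253 CPM in the HS hearts. In the small subunit it was 773, 764 and 784 CPM in the sham hearts and 662, 768 and 660 CPM in the HS hearts. HS heart 2 was below the sham hearts for the large subunit and lay among them for the small subunit. With subunits taken from the gene names, the ratio of large to small was 2.03, 2.03 and 2 for sham and 1.98, 1.99 and 1.9 for HS. By name, the HS ratios were all below the sham ratios, by a difference of a few percent (2.02 ± 0.0162 against 1.96 ± 0.0526, SD, n = 3 each). The difference between the subunits' medians, -0.04 on the log2 scale, lay between -0.08 and 0.00 when single hearts were left out.

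**Figure D3:**
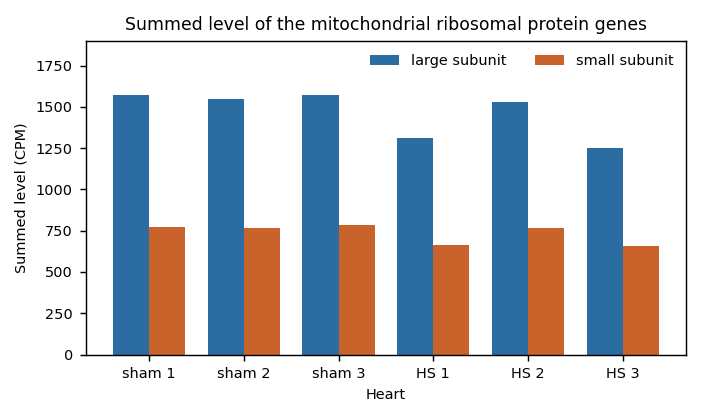
Summed level of the large and the small subunit genes in each heart, in CPM; each bar is 1 heart. HS hearts 1 and 3 are below the sham hearts for both subunits, while HS heart 2 is at 1531 and 768 CPM, next to the sham hearts.

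Gene names do not always give the place of a protein. The products of Mrps18a and Mrps30 sit in the large subunit of the mammalian mitochondrial ribosome, and that of Mrps36 belongs to the 2-oxoglutarate dehydrogenase complex. Placed by structure, 51 large subunit genes had a median of -0.22 and 26 small subunit genes a median of -0.20. The ratio of large to small was then 2.36, 2.37 and 2.31 for sham and 2.3, 2.35 and 2.23 for HS. HS heart 2 lay among the sham hearts, so the groups overlapped in this ratio. With Mrps36 left out, the 48 proteins with a relative in bacterial ribosomes had a median of -0.21 and the 29 without one a median of -0.20. All HS hearts lay below all sham hearts in 15 (31.2%) and 14 (48.3%) of them, against 10.9% of all genes.

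Expression also differed between members within a heart, and these levels are given per kilobase of transcript. In the sham hearts they ran from 1.29 to 250 CPM per kilobase, with a median of 18.4. Mrpl42, of a protein specific to mitochondrial ribosomes, was highest at 250 CPM per kilobase in sham hearts and 220 in HS hearts, followed by Mrps21 (114 and 99.5) and Mrpl30 (95.3 and 84.8). Large subunit genes had a median of 19.2 CPM per kilobase in sham hearts and 17.3 in HS hearts. Small subunit genes had medians of 17.3 and 16.6.

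In these abundant genes HS hearts 1 and 3 again had the lowest levels. Mrpl42 was at 167, 166 and 163 CPM in the sham hearts and 133, 162 and 139 CPM in the HS hearts (log2 fold change -0.19, SE 0.10, edgeR adjusted p = 0.416). Mrps21 was at 53.8, 50.4 and 53.9 CPM in the sham hearts and 42.1, 49.8 and 46 CPM in the HS hearts. In both genes the groups did not overlap, though HS heart 2 came within a few percent of the lowest sham heart.

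The smallest p among the members belonged to Mrps33, which encodes a small subunit protein with no bacterial relative (mm10 chromosome 6, 39801804 to 39810988, minus strand). Its level was 40.4, 40.3 and 38.4 CPM in the sham hearts and 32, 34.2 and 32.3 CPM in the HS hearts. All 3 HS hearts were lower than all sham hearts and close to each other, HS heart 2 included. The log2 fold change was -0.27 (SE 0.08), a difference of -17.2%, at an unadjusted p of 0.011 and an adjusted p of 0.285 (edgeR). Left out in turn, single hearts moved the log2 fold change only between -0.31 and -0.26.

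Mrpl33 encodes a small protein of the large subunit with a bacterial relative (mm10 chromosome 5, 31596935 to 31664384, plus strand). Its level was 41.2, 40.1 and 44.1 CPM in the sham hearts and 29.5, 35.1 and 36.3 CPM in the HS hearts. The groups were apart, and here HS heart 1 was the lowest and HS hearts 2 and 3 were similar. The log2 fold change was -0.31 (SE 0.11, edgeR adjusted p = 0.3).

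Mrpl58 encodes a peptidyl-tRNA hydrolase built into the large subunit that can free stalled ribosomes (mm10 chromosome 11, 115403752 to 115412674, plus strand). It was at 18.6, 18 and 21.4 CPM in the sham hearts and 14.7, 17.2 and 14.8 CPM in the HS hearts. HS heart 2 was just under the lowest sham heart. The log2 fold change was -0.31 (SE 0.12, edgeR adjusted p = 0.332).

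Among proteins with a bacterial relative, Mrpl2, whose product lies near the catalytic centre of the large subunit, was at 31.6, 32.4 and 33.2 CPM in the sham hearts and 24.6, 30.5 and 24.5 CPM in the HS hearts. Mrpl14, whose product lies at the face towards the small subunit, was at 12.8, 11.8 and 11.9 CPM against 9.38, 11.1 and 9.15 CPM. In both, HS heart 2 was nearest to the sham hearts and all HS hearts were below them. Mrpl20, whose bacterial relative takes part in assembly of the large subunit, was at 15.3, 17 and 15.4 CPM against 14, 12.4 and 13.1 CPM. There HS heart 2 was the lowest, unlike in most members. The log2 fold changes of these genes were -0.29, -0.30 and -0.27 (edgeR adjusted p from 0.334 to 0.348).

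The other members with an unadjusted p under 0.05 encode proteins specific to mitochondria. Mrpl41, of the large subunit, was at 21.8, 23 and 23.5 CPM in the sham hearts and 18.2, 20.7 and 14.1 CPM in the HS hearts (log2 fold change -0.37, SE 0.15, edgeR adjusted p = 0.344). Mrps34, which in humans is needed for a stable small subunit, was at 22.4, 22.5 and 22.7 CPM against 19.2, 20.1 and 14 CPM (log2 fold change -0.34, SE 0.14, adjusted p = 0.362). In both, the sham hearts were close together and HS heart 3 was the lowest. Mrpl54 was at 8.61, 8.27 and 9.75 CPM against 6.53, 7.7 and 7.17 CPM (log2 fold change -0.32, SE 0.13, adjusted p = 0.367), with no overlap between the groups.

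In the small subunit, the next lower genes by p were Mrps18c, Mrps21, Mrps22 and Mrps35, at edgeR adjusted p from 0.378 to 0.41. Mrps18c, whose product shares a bacterial relative with those of Mrps18a and Mrps18b, was at 18.7, 17.8 and 20.1 CPM in the sham hearts and 16.2, 16.3 and 16.2 CPM in the HS hearts. Its HS hearts were nearly equal, so that HS heart 2 did not stand out. Mrps22, for which variants in humans cause mitochondrial disease, was at 15.3, 17.3 and 17.1 CPM against 14.3, 15.1 and 11.4 CPM. Mrps35 was at 43.7, 43.8 and 45 CPM against 34.1, 41.8 and 39.5 CPM. In each of these genes all HS hearts lay below all sham hearts.

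**Figure D4:**
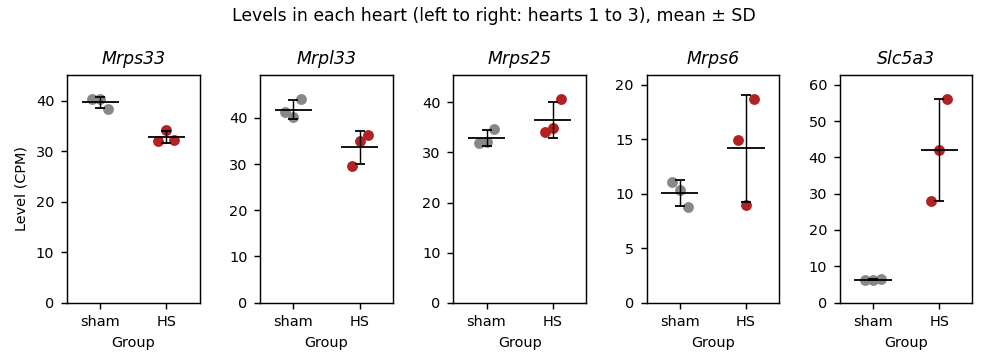
Level in each heart, in CPM, of Mrps33, Mrpl33, Mrps25, Mrps6 and Slc5a3; points are hearts 1 to 3 from left to right, horizontal lines are means and bars are SD (n = 3). The groups do not overlap for Mrps33, Mrpl33 and Slc5a3, and overlap for Mrps25 and Mrps6, where HS heart 2 is at 8.92 CPM.

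Some members differed strongly between the HS hearts. Mrpl47, a large subunit gene, was at 26.1, 23.8 and 22.5 CPM in the sham hearts and 18.9, 24 and 14.2 CPM in the HS hearts. Mrpl43, also of the large subunit, was at 17.3, 17.5 and 16.3 CPM against 14.8, 18.6 and 10.9 CPM. In both, HS heart 3 was far below the sham hearts and HS heart 2 was within or above them. Mrps27, of a small subunit protein with RNA-binding repeats, was at 26, 26.4 and 28.6 CPM against 22.7, 29.7 and 18.4 CPM. Mrps23 was at 82.4, 81.8 and 81.8 CPM against 67.7, 83.2 and 55.9 CPM. HS heart 2 exceeded every sham heart in these genes, and HS hearts 1 and 3 lay below every sham heart. With HS hearts 1 and 3 left out, the log2 fold changes of Mrpl43, Mrps27 and Mrps23 were 0.13, 0.14 and 0.02, against -0.20, -0.20 and -0.25 with all hearts.

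The 8 members with a positive fold change were Mrpl48, Mrpl49, Mrpl52, Mrps6, Mrps12, Mrps25, Mrps28 and Mrps30. Mrpl48 was at 29.7, 29 and 29.2 CPM in the sham hearts and 30.8, 29.9 and 30.2 CPM in the HS hearts. The HS hearts were all higher, by only 3.4% on average (log2 fold change 0.05, SE 0.08, edgeR adjusted p = 0.801). Mrps25, of the small subunit, was at 31.9, 32.1 and 34.7 CPM against 34, 34.8 and 40.7 CPM (log2 fold change 0.15, SE 0.10, adjusted p = 0.524), with HS heart 3 the highest and the groups overlapping. The log2 fold changes of Mrpl49, Mrpl52, Mrps12, Mrps28 and Mrps30 were between 0.01 and 0.06, within their standard errors, and each turned negative in at least 1 alternative. For Mrps12, Mrps28 and Mrps30 these included scaling by upper quartile or by column totals, and also leaving out sham heart 3 or HS heart 2.

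Mrps6 had the largest positive fold change. It encodes a small subunit protein with a bacterial relative, and was at 11.1, 10.3 and 8.76 CPM in the sham hearts and 14.9, 8.92 and 18.7 CPM in the HS hearts. HS hearts 1 and 3 were above all sham hearts, and HS heart 2 was next to the lowest. The log2 fold change was 0.49 (SE 0.26, edgeR adjusted p = 0.44), and it was -0.17 with HS hearts 1 and 3 left out and 0.73 with HS heart 2 left out.

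Mrps6 (mm10 chromosome 16, 92058270 to 92112227) shares its first exon with Slc5a3 (92058322 to 92087473, same strand), which encodes the sodium-coupled myo-inositol transporter used by cells against osmotic stress. The exons have 159 bases in common (92058322 to 92058480), so reads from there fit both genes. Slc5a3 was at 6.14, 6.21 and 6.57 CPM in the sham hearts and 27.9, 42 and 56.1 CPM in the HS hearts (log2 fold change 2.73, SE 0.25, edgeR adjusted p = 0.021). HS heart 2 thus had an intermediate level of Slc5a3 and the lowest HS level of Mrps6. Nearly all Mrps6 counts, 99.4% in sham and 98.9% in HS hearts, were assigned to 1 transcript, ENSMUST00000047429. How much of the Mrps6 level comes from shared reads was not tested.

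The stretch around the RefSeq starts of these genes is shown on GRCm38.p6 (chr16:92058086-92058365, plus strand, 250 bases before to 30 after the Mrps6 start). By RefSeq, Mrps6 starts at 92058336, 14 bases after Slc5a3 at 92058322. In the GENCODE coordinates given above, Mrps6 starts first, at 92058270, so part of the stretch lies in its first exon. Capitals mark the bases from the start of Slc5a3 to the base before the start of Mrps6.
Mrps6: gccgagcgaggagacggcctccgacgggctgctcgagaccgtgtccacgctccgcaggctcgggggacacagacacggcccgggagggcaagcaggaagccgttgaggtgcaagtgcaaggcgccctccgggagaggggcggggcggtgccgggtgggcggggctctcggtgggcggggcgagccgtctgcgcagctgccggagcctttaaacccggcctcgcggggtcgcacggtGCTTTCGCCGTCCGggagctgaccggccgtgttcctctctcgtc
None of the motifs described next matched in the window of this gene.

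Promoters of the members were searched because many of them had lower levels together. RefSeq windows of 300 bases, from 250 before to 50 after a start, were at hand for 69 of the 78 members (75 windows), and those without one were Mrpl4, Mrpl13, Mrpl15, Mrpl19, Mrpl38, Mrpl54, Mrps28, Mrps34 and Mrps35. Both strands were searched for exact letters, and each count is of members with a match in any of their windows, beside the share among 27025 genes. A match is a description of the letters and not of binding. Whether matches go with the lower levels was not tested, and the 27025 genes were not limited to those expressed in these hearts.

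The ETS motif CCGGAAG, bound by factors such as GABP, stood in 26 members (37.7%, against 9.93% of all genes). The NRF1 motif, which is GCGC, NN and GCGC in a row, stood in 14 (20.3%, against 7%), and the YY1 motif AAGATGGC in 12 (17.4%, against 3.19%). NRF1 and GABP are known regulators of nuclear genes for mitochondria. The E-box CACGTG was found in 5 members (7.25%, against 8.09%). The AP-1 motif TGANTCA, bound by Jun and Fos dimers, stood in 3 (4.35%, against 8.97%), those of Mrpl33, Mrps5 and Mrps25. Heat shock elements, written in a row as GAA, NN, TTC, NN and GAA or as TTC, NN, GAA, NN and TTC, were found in 0 members and in 0.662% of all genes for each form. ETS matches stood in 15 large and 11 small subunit genes, NRF1 matches in 11 and 3, and YY1 matches in 6 and 6. The large subunit has more members with a window, so these counts are not shares and cannot be compared directly.

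The windows of Mrpl33 and Mrpl58 are shown since both genes were among the lowest by p. That of Mrpl33 (GRCm38.p6 chr5:31613701-31613980, plus strand) holds an AP-1 match whose first base lies 85 bases before the start and an ETS match whose first base lies 3 bases before it. That of Mrpl58 (chr11:115403502-115403781, plus strand) holds ETS matches whose first bases lie 17 and 2 bases before the start. Both run from 250 bases before to 30 after the start, with the matches in capitals.
Mrpl33: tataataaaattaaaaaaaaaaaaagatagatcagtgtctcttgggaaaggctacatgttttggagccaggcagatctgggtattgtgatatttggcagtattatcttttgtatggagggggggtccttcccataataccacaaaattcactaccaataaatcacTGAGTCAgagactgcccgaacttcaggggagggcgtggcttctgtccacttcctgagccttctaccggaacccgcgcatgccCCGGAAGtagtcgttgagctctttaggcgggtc
Mrpl58: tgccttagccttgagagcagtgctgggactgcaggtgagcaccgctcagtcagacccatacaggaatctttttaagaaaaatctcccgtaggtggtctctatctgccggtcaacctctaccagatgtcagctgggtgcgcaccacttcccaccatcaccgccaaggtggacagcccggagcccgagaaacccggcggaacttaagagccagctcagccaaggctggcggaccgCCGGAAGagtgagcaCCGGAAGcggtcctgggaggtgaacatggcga
The ETS match closest to the start is at nearly the same distance in both genes, but not in all lower members. Its first base is at position 39 from the start in Mrps33, 19 in Mrps21, -11 in Mrps22 and -156 in Mrps18c.

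Counting limits some single members. Exons of 33 members overlap those of other genes, 8 on the same strand and 28 on the opposite strand. The libraries keep the strand, but whether the counting used it is not given in the sources used here, so these members are uncertain. Mrps25 shares 4590 exon bases with Nr2c2 on the opposite strand, Mrps34 shares 1309 with Mapk8ip3 on the opposite strand and 763 with Nme3 on the same strand, and Mrpl48 shares 708 with Rab6a on the opposite strand. Nr2c2 was at 21.7, 21 and 19.8 CPM in the sham hearts and 24.9, 20.5 and 25.3 CPM in the HS hearts. On the opposite strand, Mrpl47 shares 616 exon bases with Ndufb5 and 452 with Actl6a, and Mrpl43 shares 507 with Twnk. Ndufb5 was at 188, 178 and 186 CPM in the sham hearts and 155, 187 and 163 CPM in the HS hearts. Mrpl46 and Mrps11 are members that overlap each other by 173 bases on chromosome 7, and their log2 fold changes were -0.32 and -0.28.

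Mrpl23, of a protein at the exit of the large subunit's tunnel, had the lowest level of all members. It was at 1.51, 0.965 and 1.85 CPM in the sham hearts and 0.722, 1.22 and 0.813 CPM in the HS hearts, from 16 to 43 counts per heart. The groups overlapped, and the log2 fold change of -0.64, the lowest of the members, had an SE of 0.36 (edgeR adjusted p = 0.453). Its pseudogene Mrpl23-ps1 on chromosome 2 was listed with 18.5, 19.1 and 19.6 CPM in the sham hearts and 15.6, 18.4 and 15.3 CPM in the HS hearts, and how reads were divided between these copies is uncertain. The log2 fold change of the pseudogene was -0.21 (adjusted p = 0.425).

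Of the 342 member transcripts 179 passed the filter, and their median log2 fold change was -0.21, against 0.01 over 30933 tested transcripts. At an adjusted p under 0.05 (edgeR) 0 were called, against 0.0226% of all transcripts. At an unadjusted p under 0.05, 5 (2.79%) were lower, against 3.88% of all transcripts, and 0 were higher, against 5.73%. In 43 members a single transcript made up over 90% of the gene's counts in sham hearts.

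The 5 lower transcripts belonged to Mrpl33, Mrpl42, Mrps18c, Mrps33 and Mrps35. The main transcript of Mrps33, ENSMUST00000031978, was at 31.9, 32.1 and 31.9 CPM in the sham hearts and 25.6, 26.5 and 24.8 CPM in the HS hearts (log2 fold change -0.32, SE 0.09, edgeR adjusted p = 0.368). The groups were apart, and the hearts within each group were close together. A long minor transcript of Mrpl42, ENSMUST00000218996, was at 2.12, 1.73 and 1.3 CPM against 0.364, 0.198 and 0.353 CPM (log2 fold change -2.48, SE 0.44, adjusted p = 0.201). It made up 1.03% of the gene's counts in sham hearts and 0.217% in HS hearts, so its weight in the level of the gene is small. In Mrps35 the share of the main transcript was 85.6, 83.4 and 85.5% in the sham hearts, against 84, 81.1 and 75.7% in the HS hearts, where HS heart 3 was the lowest and the groups overlapped.

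The other genes of mitochondrial translation were near the members or closer to 0. Of 28 assembly factors of the mitochondrial ribosome, 23 were negative, with a median log2 fold change of -0.13. At an unadjusted p under 0.05, 1 was lower (3.57%), below the 4.76% of all genes. This was Ddx28, a helicase for the large subunit, at 5.06, 4.83 and 4.08 CPM in the sham hearts and 3.21, 3.71 and 2.24 CPM in the HS hearts (log2 fold change -0.60, SE 0.23, edgeR adjusted p = 0.326). Of 17 translation factors 15 were negative, with a median of -0.13. At an unadjusted p under 0.05, 0 of them were lower, against 4.76% of all genes, and 0 higher, against 8.83%. Of 5 proteins of the ribosome that carry other names, all were negative, with a median of -0.14. One of them, Chchd1 of the small subunit, was at 28.1, 25.9 and 27.5 CPM in the sham hearts and 20.6, 23.7 and 20.7 CPM in the HS hearts (log2 fold change -0.33, SE 0.10, adjusted p = 0.288).

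Of 17 mitochondrial tRNA synthetases 13 were negative, with a median of -0.08. Lars2, which charges leucine tRNA, was the only one higher at an unadjusted p under 0.05, where 8.83% of all genes were. It was at 103, 76.2 and 99.2 CPM in the sham hearts and 124, 123 and 139 CPM in the HS hearts (log2 fold change 0.47, SE 0.13, edgeR adjusted p = 0.271). The HS hearts were alike in this gene and all above the sham hearts. Of 10 genes that copy and transcribe mitochondrial DNA 8 were negative, with a median of -0.14. Tfam, which packs that DNA, was at 29.7, 29.7 and 34.1 CPM against 27.4, 29.1 and 21.9 CPM (log2 fold change -0.25, SE 0.13, adjusted p = 0.428). Of 10 known regulators of these genes 5 were negative and 5 positive, with a median of 0.00.

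The rRNAs of the mitochondrial ribosome had the opposite direction from its proteins. Their summed level was 16201, 16417 and 17000 CPM in the sham hearts and 25701, 31821 and 62330 CPM in the HS hearts. All HS hearts were above all sham hearts, HS heart 3 by far. The log2 fold change of mt-Rnr2, of the large subunit, was 1.40 (SE 0.31, edgeR adjusted p = 0.22), and that of mt-Rnr1, of the small subunit, 0.85 (SE 0.34, adjusted p = 0.345). The libraries were poly(A)-selected, which is not designed to keep these rRNAs. The 13 mRNAs of the mitochondrial genome, the templates of this ribosome, had a median of -0.04, with medians of -0.23, -0.03 and 0.36 in HS hearts 1, 2 and 3.

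Nuclear subunits of the respiratory chain and ATP synthase resembled the members, most closely in HS hearts 1 and 2. Of 81 tested, 78 were negative and the median was -0.15, with medians of -0.27, -0.02 and -0.17 in HS hearts 1, 2 and 3. At an unadjusted p under 0.05 (edgeR), 17 (21%) were lower, against 11.5% of the members and 4.76% of all genes. In 29 (35.8%) all HS hearts lay below all sham hearts, against 37.2% of the members and 10.9% of all genes. The summed level of the members was 9.34, 9.34 and 9.15% of that of these subunits for sham and 9.01, 9.19 and 8.42% for HS. HS heart 2 lay between the sham hearts, and HS heart 3 was the lowest.

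Proteins of the cytosolic ribosome differed from the members mainly in HS heart 3. Of 79 tested genes 57 were negative, with a median of -0.06 and values of -0.23, -0.10 and 0.11 for HS hearts 1, 2 and 3. The summed level of the members was 28.3, 28.5 and 27.6% of that of the cytosolic ribosomal proteins for sham and 27.9, 29.6 and 21.5% for HS. HS heart 1 lay among the sham hearts and HS heart 2 above them, while HS heart 3 was well below. Against the summed ventricular list the members made up 5.38, 5.42 and 5.31% for sham and 4.52, 4.78 and 5.16% for HS. Here HS heart 1 was the lowest and the groups did not overlap. The largest term of that sum was Myh6, at 14512, 14141 and 14591 CPM in sham and 19170, 19244 and 13809 CPM in HS hearts. How far the ratio follows this gene was not tested.

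**Figure D5:**
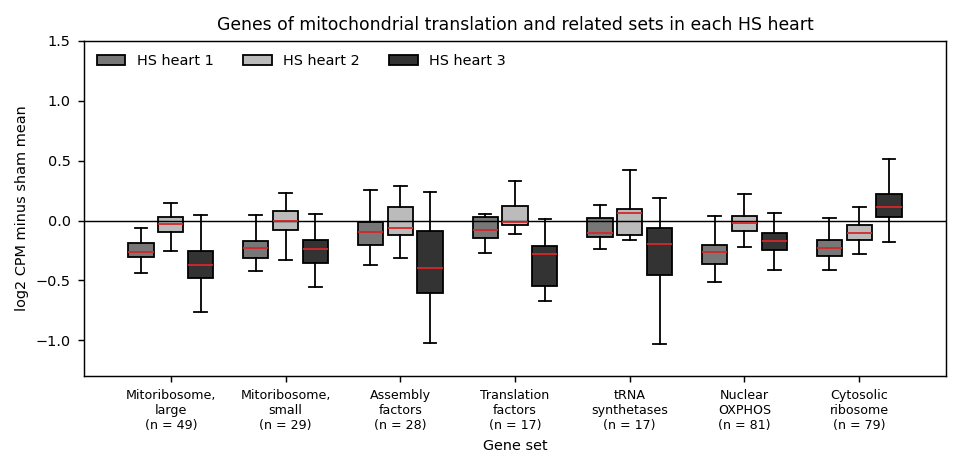
Difference of each gene from the sham mean, in log2 CPM, for gene sets of mitochondrial translation, nuclear oxidative phosphorylation (OXPHOS) and the cytosolic ribosome, with a box for each HS heart. Boxes span the quartiles, red lines are medians, whiskers reach the last gene within 1.5 box lengths and genes beyond are not drawn; the members are low in HS hearts 1 and 3 and near 0 in HS heart 2, while the cytosolic ribosome is above 0 in HS heart 3.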

How the data were processed

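Heart RNA of 3 sham and 3 HS mice was analysed. The authors used fastp for cleaning and Hisat2 for alignment, and the deposited values are unscaled estimated counts of transcripts for single hearts. The submitters' processing notes name mm10. For transcript assignment the program, annotation and strand setting are not given in the sources used. Of the deposited values 30.3% were not whole numbers. Groups come from the sample titles.

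Counts were summed per gene and rounded. A filter on low counts was applied (filterByExpr of edgeR, with a minimum count of 10 and a total of 15), TMM scaling was applied, and the quasi-likelihood test (robust, group as the only term) was run over 14717 genes with Benjamini-Hochberg adjustment (edgeR 4.0.16, R 4.3.3; limma 3.58.1 and DESeq2 1.42.0 in alternatives). The test gives no standard error. Those printed were derived from it, as the absolute log2 fold change divided by the square root of the test's F statistic. The biological coefficient of variation was 0.204, and TMM factors ran from 0.892 to 1.07. A limit of 3 counts, which a count of 0 allows, corresponds to 0.108 to 0.152 CPM and covers counting error only. Levels per kilobase used GENCODE vM21 transcript lengths. Exon overlaps and gene coordinates are from the same annotation (mm10), and promoter windows from RefSeq (GRCm38.p6).

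The members and the gene lists were chosen with earlier results of these data known. Named members were those with the smallest unadjusted p in each direction and subunit, up to 6, the 3 of each subunit with the widest range among HS hearts, the 3 with the highest level per length, and Mrps6. For the other lists up to 3 genes with the smallest p could be named. Mrpl23, Mrpl46 and Mrps11 were named after their values were seen, for their shared reads, as was Mrpl54, for its unadjusted p under 0.05. The sources speak of biosamples of each group, and p-values measure the spread between these hearts. Replicate numbers are shared between the groups, but same-numbered hearts did not deviate together (correlations of -0.061, 0.132 and 0.012), so no pairing was used.

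Markers were also checked for endothelial cells (median log2 fold change 0.04), macrophages (-0.24), adipocytes (3.64, 1 of 4 tested) and red blood cells (1.46). Alternatives were other scalings, filters and tests, a replicate block, leaving out each heart, placing proteins by structure, and, chosen after seeing the data, leaving out HS hearts 1 and 3.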

Additional observations from a re-analysis of the deposited data

How the results depend on the processing

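With 3 hearts per group, the median standard error of a member was 0.12, against a median log2 fold change of -0.20. In every alternative run 0 members had an adjusted p under 0.05. All genes called were 9 in the analysis as reported, 16 with column totals only, 84 without a filter on low counts, 4 with at least 10 counts in every heart, 320 with DESeq2, and 2 to 287 when single hearts were left out, the highest without HS heart 2. Members lower at an unadjusted p under 0.05 were 9 as reported (11.5%, against 4.76% of all genes), 14 with upper quartile scaling (17.9%, against 5.52%), 5 with DESeq2 (6.41%, against 2.20%) and 1 to 46 when single hearts were left out, the lowest without sham heart 3 (1.28%, against 2.87%) and the highest without HS heart 2 (59.0%, against 8.10%). Members higher at an unadjusted p under 0.05 were 0 as reported (against 8.83% of all genes) and 0 with every other scaling, filter and test. Leaving out single hearts gave 0 to 1, the highest without HS heart 2 (1 member, against 13.1% of all genes). Members with all HS hearts below all sham hearts were 29 as reported (37.2%, against 10.9% of all genes). They were 65 without HS heart 2 and 30 to 37 when another single heart was left out. Those with all above were 1 as reported (against 11.0% of all genes), 0 with upper quartile scaling, 0 without a filter and 1 to 3 when single hearts were left out. With a heart fewer, groups come apart more easily. On the scale as reported, 20% of all genes had HS hearts 1 and 3 both below all sham hearts, which is the share to set beside the 65 members. Other shares were not computed, so the other counts of groups apart under alternatives cannot be read against all genes. The cause of these moves was not tested.

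The median log2 fold change was -0.15 to -0.28 for the members, -0.14 to -0.31 for the large and -0.13 to -0.26 for the small subunit when single hearts were left out, and that of Mrps6 0.25 to 0.73. For Mrps6 the smallest adjusted p over the alternatives was 0.0869, without HS heart 2. Without Mrps6 the members' median was -0.20, and with the ribosomal proteins of other names added it was -0.20. No scaling moved the median of all genes by over 0.1.

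On the scale as reported, HS heart 2 lay below all sham hearts in 31 members, where 29.3% of all genes did. It lay above all sham hearts in 19 members, where 29.0% of all genes did. Both counts of members were the same with HS hearts 1 and 3 left out. Leaving out HS hearts 1 and 3, chosen after seeing the data, leaves a single HS heart, whose spread is taken to be that of the sham hearts. It gave 129 called genes, 3 members lower (3.85%, against 5.54% of all genes) and 1 higher at an unadjusted p under 0.05, 19 members with HS above, medians of -0.03 (members), -0.03 (large) and -0.01 (small), and a log2 fold change of -0.17 for Mrps6, 0.02 for Mrps23, 0.13 for Mrpl43 and 0.14 for Mrps27.

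With the replicate block, 4 members were lower at an unadjusted p under 0.05 (5.13%, against 3.83% of all genes), 9 genes were called in all and the members' median was -0.22. The replicate numbers are shared names only.

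Of the values of the 29 named members other than Mrps6 under alternatives, 441 kept and 23 turned direction. Mrps30 (0.01) was at -0.03 with upper quartile scaling, -0.04 with column totals, -0.01 without a filter, -0.00 with DESeq2 and -0.00 with limma-voom, and -0.08 to 0.11 when single hearts were left out. Mrps12 (0.02) was at -0.02, -0.03 and from -0.11 to 0.09 with upper quartile, column totals and hearts left out, and Mrps28 (0.02) at -0.01, -0.02 and from -0.09 to 0.07. Mrpl52 (0.04) ranged from -0.17 to 0.20 and Mrpl49 (0.06) from -0.05 to 0.12 when single hearts were left out.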
